A study of Rattus norvegicus with 6 samples.

Results

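Transcripts of white and brown fat cells were followed in the renal cortex of rats given benzyl acetate or vehicle. They were 8 genes, Adipoq, Fabp4, Cidea, Cidec, Lipe, Pparg, Retn and Ucp1, chosen by name and found on the array by matching probe accessions to gene symbols. All 8 were present, with 15 probes, among 31179 genes tested. The animals were male Sprague-Dawley (Crl:CD(SD)) rats, 5 weeks old at purchase, on a basal diet. The vehicle group of 3 rats received corn oil for 4 weeks, and the other group of 3 rats received benzyl acetate, a fragrance ester, at 1000 mg/kg/day for 4 weeks. Total RNA of each renal cortex was labelled with Cy3 and hybridised to its own 1-colour Agilent array.

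The kidney is bedded in perirenal fat, a depot that holds white and, in young rodents, brown adipocytes. White adipocytes store triglyceride in a single droplet, release fatty acids by lipolysis and secrete adipokines, under the control of the nuclear receptor PPARgamma. Brown adipocytes burn fatty acids for heat through uncoupling protein 1. Some of these genes are also active outside fat: Fabp4 is known in capillary endothelium and macrophages, and Pparg in the collecting duct. The question was whether the adipocyte genes varied together from array to array, as fat left on the cortex would give, and whether they differed between the groups. In bulk RNA, fewer cells of a type and less RNA per cell cannot be told apart.

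Values are log2 signals relative to the 75th percentile of each array, so a value of 0 is the signal at that percentile. It lay between 883 and 1057 signal units. Of the 61537 probes of an array, the scanner software called 70.5% to 72.0% well above background in vehicle. With benzyl acetate it called 69.0% to 69.8%. Renal cortex markers were present, with all 10 listed genes tested and Slc34a1, the phosphate transporter of the proximal tubule, between 8.44 and 8.68. Benzyl acetate replicate 3 stood apart on the first principal component, at 50.1 against -24.4 to -0.23, and its Gapdh control probes differed by 2.62 log2 between the 3' and 5' ends, against 2.37 to 2.44. Vehicle replicate 1 was on a slide of its own and the other 5 arrays shared another. Results without that array are therefore the within-slide values. No gene passed an adjusted p of 0.05 in limma (0 of 31179, 0%), while 2100 had an unadjusted p under 0.05, or 6.74%. Of these 2100 genes 1190 were higher with benzyl acetate, against 828 of 2104 with median scaling and 1551 of 2289 with normexp background correction. The groups did not overlap for 12.8% of genes.

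Among the 8 fat transcripts, 6 were well above background on all 6 arrays, Retn on 5 and Fabp4 on the 3 vehicle arrays only. None passed limma's threshold over all genes. Fabp4 and Ucp1 were lower with benzyl acetate at an unadjusted p under 0.05, and their measured values did not overlap between the groups. For Fabp4 that rests on treated values below background. Over all genes, 2.92% were lower by that p, and 5.31% were lower without overlap, against 7.51% higher without overlap. The other 6 members had intervals that included 0, of which Adipoq and Retn were on the higher side. The median log2 difference over the 8 members was -0.093, against 0.012 over all genes.

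**Figure D1:**
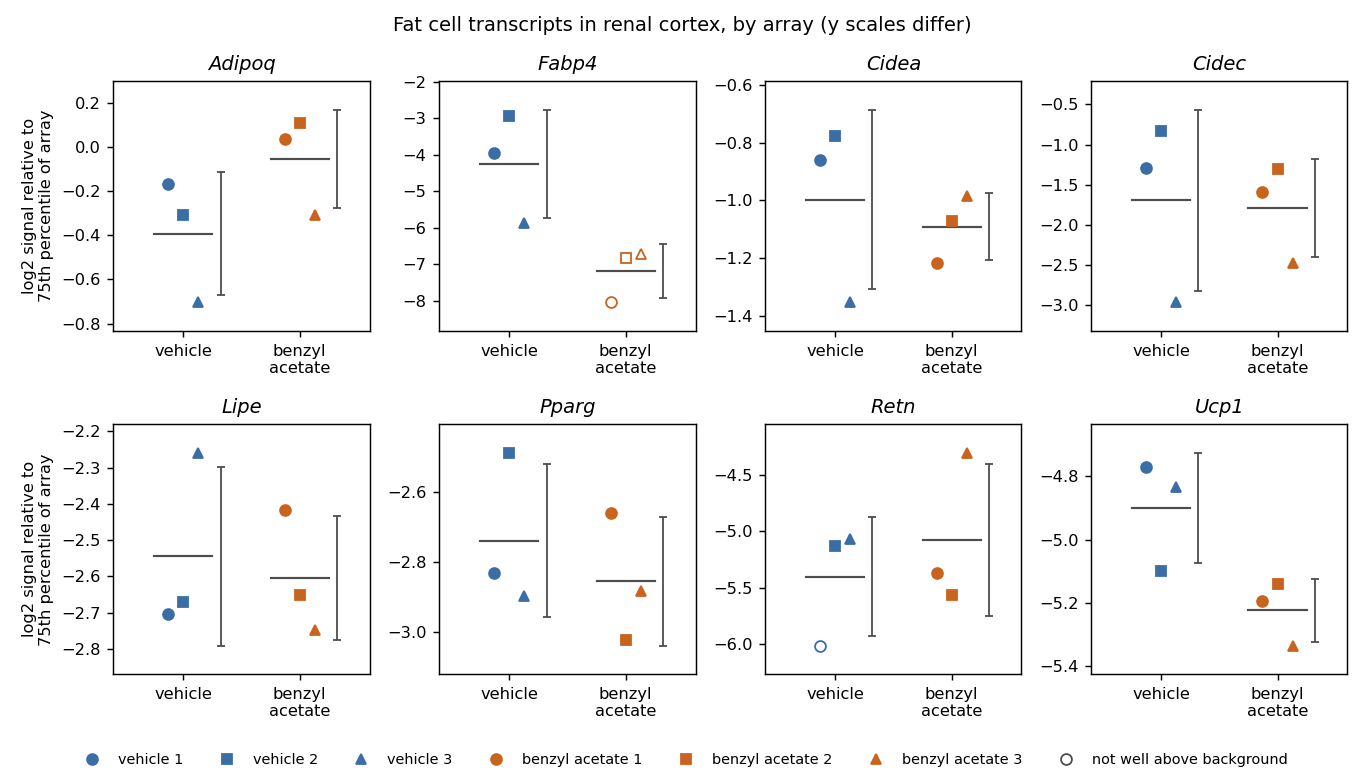
Log2 signal, scaled to the 75th percentile, for each of the 8 fat transcripts, with 1 point per array, blue for vehicle and orange for benzyl acetate; lines are group means, bars are SD (n = 3) and open points were not well above background. Fabp4 is above background in vehicle only, and the measured values of the groups overlap in every panel except Fabp4 and Ucp1.

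Adipoq encodes adiponectin, the adipocyte hormone that raises fatty acid oxidation. Its log2 signal was -0.17, -0.31 and -0.70 in vehicle replicates 1 to 3, and 0.037, 0.11 and -0.31 in benzyl acetate replicates 1 to 3. Vehicle replicate 3 was lowest, the treated animals 1 and 2 were highest, and benzyl acetate replicate 3 lay inside the vehicle range. The highest array exceeded the lowest 1.76-fold. Benzyl acetate minus vehicle was 0.34 (95% interval -0.097 to 0.78), which did not pass in limma (adjusted p = 0.775). A dimmer Adipoq probe gave 0.37 and followed the first across arrays.

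Retn encodes resistin, an adipocyte hormone of rodents that opposes insulin. Its signal was near background, at -6.01, -5.13 and -5.07 in vehicle and -5.36, -5.56 and -4.31 with benzyl acetate. Vehicle replicate 1 was not well above background, and benzyl acetate replicate 3 was the highest array. That array was also the one that stood apart, and its part in the Retn value was not tested. The difference was 0.32 (-0.68 to 1.33), and it was -0.062 without benzyl acetate replicate 3. Without vehicle replicate 1 it was 0.019. Both Retn probes differed by 0.32.

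Fabp4 encodes the fatty acid carrier aP2, among the most abundant proteins of adipocytes. Its processed signal was 65.1, 136 and 18.1 units in vehicle replicates 1 to 3, and 3.75, 8.79 and 8.41 units in the treated animals. The lowest signal called well above background was 15.1, 15.2 and 14.0 units on the vehicle arrays and 18.3, 16.3 and 15.3 units on the treated arrays. All 3 vehicle arrays were therefore above it and all 3 treated arrays below, with vehicle replicate 3 just above. On the log2 scale vehicle averaged -4.25 ± 1.48 (SD, n = 3) and benzyl acetate -7.19 ± 0.738 (SD, n = 3). The treated values are only bounds. With the lowest signal well above background on each treated array taken as the limit, vehicle was 3.01-fold higher. This bound is approximate, because a spot above that signal can still miss the call. Retn on vehicle replicate 1, at 15.6 units against 15.1, is such a spot. The bound was 1.92-fold without vehicle replicate 2 and 5.27-fold without vehicle replicate 3. Vehicle replicate 3, at -5.86, was below that limit on 2 of the 3 treated arrays, so an overlap of the groups cannot be told from these values.

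The fitted log2 difference of Fabp4, -2.94, uses the treated values as measured and did not pass in limma (adjusted p = 0.669). Fabp4 entered the test only through the vehicle group, where it was high. The fit and the bound both rest on those vehicle values, so they describe these arrays and support no difference. Over all tested genes, 117 were above background on the 3 vehicle and on no treated array, or 0.375%, and 8 showed the reverse, or 0.0257%. Treated arrays had fewer probes called and a higher lowest called signal, and the part of this in these counts was not tested. With normexp background correction and an offset the difference was -0.79, and without vehicle replicate 2 it was -2.29. On the shared slide alone it was -2.79.

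Cidec encodes the droplet protein that fuses lipid droplets into the single droplet of white adipocytes. Its log2 signal was -1.29, -0.83 and -2.97 in vehicle and -1.59, -1.30 and -2.47 with benzyl acetate. Replicate 3 of each group was the low array, and the other 4 lay within 0.77 log2 of each other. These 2 low animals carried different treatments, and the group difference was -0.093 (-1.59 to 1.40). It was -0.73 without vehicle replicate 3 and 0.11 on the shared slide alone. The highest array exceeded the lowest 4.41-fold.

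Cidea, the related droplet protein of brown adipocytes, ranged less, 1.49-fold over the 6 arrays. It stood at -0.86, -0.78 and -1.35 in vehicle and -1.22, -1.07 and -0.98 with benzyl acetate. Vehicle replicate 3 was again the lowest, and the treated arrays lay inside the vehicle range. The difference was -0.093 (-0.50 to 0.32). A dimmer Cidea probe gave -0.25 and was lowest on benzyl acetate replicate 1, at -3.46 against -3.30 on vehicle replicate 3.

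Lipe encodes hormone-sensitive lipase, which hydrolyses diglyceride during lipolysis. Its values were -2.70, -2.67 and -2.26 in vehicle and -2.42, -2.65 and -2.75 with benzyl acetate. On the brightest probe of each gene, vehicle replicate 3, the lowest array for Adipoq, Cidea and Cidec, was the highest for Lipe. The dimmer Lipe probes were highest on benzyl acetate replicate 1 or 3 instead. The difference on the brightest probe was -0.061 (-0.44 to 0.31), and the 4 Lipe probes split evenly in sign.

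Pparg encodes PPARgamma, the receptor that drives adipocyte differentiation. It was at -2.83, -2.49 and -2.90 in vehicle and -2.66, -3.02 and -2.88 with benzyl acetate, with overlapping groups and a difference of -0.12 (-0.48 to 0.25). Its 2 probes, to different transcript accessions, did not follow each other across the arrays (Pearson r = -0.013, a description over 6 arrays). Of the 14 tested PPAR partners and relatives, 7 were higher and 7 lower, and 0 had an unadjusted p under 0.05. The corepressor Ncor1 differed by -0.0029 and the retinoid X receptor gene Rxrg, a partner of PPARgamma, by 0.0029.

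Ucp1 encodes the proton channel of brown fat mitochondria. Its signal was low but above background on all arrays, at -4.77, -5.10 and -4.83 in vehicle and -5.19, -5.14 and -5.33 with benzyl acetate. Every treated array lay below every vehicle array, with a gap of 0.042 log2 between vehicle replicate 2 and benzyl acetate replicate 2. The difference was -0.32 (-0.59 to -0.051), a 1.25-fold lower level, with an adjusted p of 0.702 in limma and a two-sided exact p of 0.1 by permutation, a value that 3 against 3 arrays cannot go below. With normexp and an offset it was -0.027. Ucp2, the widely expressed relative, differed by -0.18 (-0.48 to 0.11), and the brain-enriched Slc25a14 by 0.15 (-0.081 to 0.38).

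**Figure D2:**
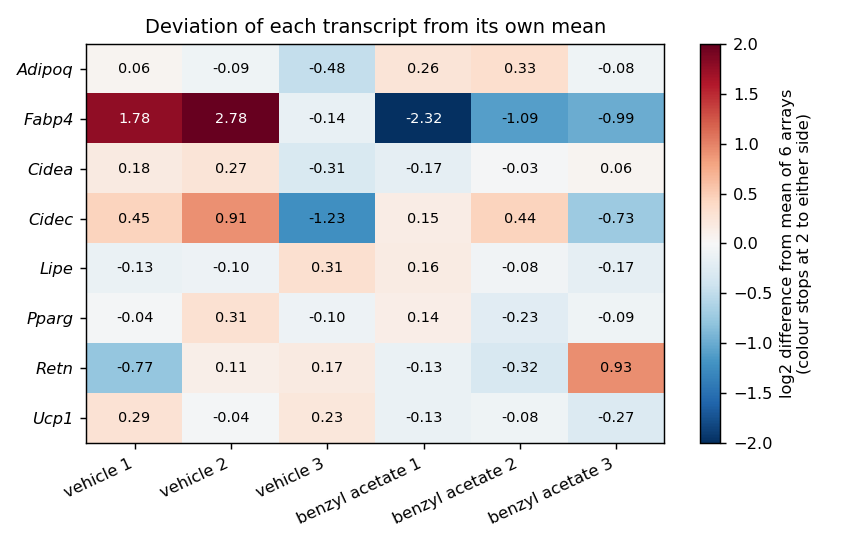
Log2 difference of each transcript (rows) from its own mean over the 6 arrays (columns), printed in each cell and coloured from blue, lower, to red, higher. Vehicle replicate 3 is below the mean for Adipoq, Cidea and Cidec and above it for Lipe, and Retn is highest on benzyl acetate replicate 3.

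The arrays were then compared for shared variation. Over the 6 members above background on all arrays there were 15 pairs, of which 6 had a positive and 9 a negative Pearson correlation across the 6 arrays. The median r was -0.042, with a range from -0.87 for Cidea with Lipe to 0.71 for Cidea with Cidec. No pair passed an exact permutation test after Benjamini-Hochberg adjustment over the 15 pairs (lowest adjusted p = 0.333), and 1 pair had an unadjusted p under 0.05. That pair was Cidea and Lipe, with an exact permutation p of 0.0222 and an adjusted p of 0.333. Its Spearman rho was -0.77 (exact permutation p = 0.103), and r was -0.85 without the 2 arrays farthest from the median of Cidea. The pair rests on the brightest Lipe probe, which correlated at 0.89, 0.62 and -0.050 with the dimmer Lipe probes. Cidea was not tested against those probes.

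Adipoq and Cidec correlated at r = 0.66 (exact permutation p = 0.160, adjusted p = 0.789), with a Spearman rho of 0.26 (exact permutation p = 0.658). Without vehicle replicate 3 and benzyl acetate replicate 2, the arrays farthest from the median of Adipoq, r was 0.054. Without vehicle replicate 3 alone it was 0.16, whereas without benzyl acetate replicate 2 alone it was 0.64, so the relation rests on vehicle replicate 3. Without vehicle replicate 2 it was 0.90 (exact permutation p = 0.0333). Taken as deviations from the group means, r was 0.91.

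Shared variation of Adipoq and Fabp4 was not detectable over 6 arrays. Their r was -0.34 (exact permutation p = 0.5, adjusted p = 0.625 over 5 further relations) and rho was -0.66 (exact permutation p = 0.175). Without the 2 arrays farthest from the median of Adipoq r was -0.61, and on the shared slide alone it was -0.43. All 3 treated animals had Fabp4 below background, among them treated 1 and 2, with the highest Adipoq. Vehicle replicate 2, with the highest Fabp4, had the second lowest Adipoq, at -0.308 against -0.306 on benzyl acetate replicate 3. In the other direction, vehicle replicate 3 had the lowest Adipoq and the lowest Fabp4 of its group. As deviations from the group means r was 0.46, opposite in sign. The 3 treated Fabp4 values carry no order, and with Fabp4 raised to the lowest signal well above background on each array r was -0.071. Fabp4 and Cidec gave r = 0.44 (exact permutation p = 0.376, adjusted p = 0.625), a rho of 0.49 (exact permutation p = 0.356) and 0.71 as deviations from the group means. Without the arrays farthest from the median of Fabp4, vehicle replicates 1 and 2, r was -0.71, over 4 arrays of which 3 had Fabp4 below background.

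**Figure D3:**
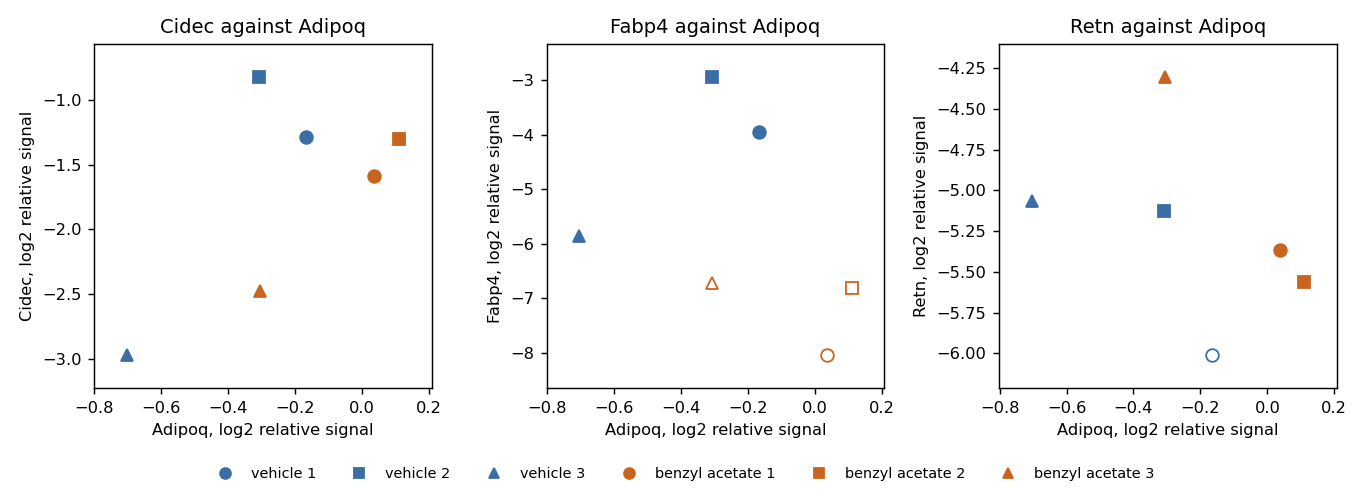
Cidec, Fabp4 and Retn (vertical axes) against Adipoq (horizontal axis), each as log2 signal scaled to the 75th percentile, with 1 point per array; open points were not well above background. Cidec is lowest on the arrays of replicate 3, Fabp4 is highest on vehicle replicate 2, and Retn is highest on benzyl acetate replicate 3.

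Retn against Adipoq gave r = -0.42 (exact permutation p = 0.394, adjusted p = 0.625), a rho of -0.66 (exact permutation p = 0.175), and -0.49 without the 2 arrays farthest from the median. The genes with the pattern nearest to Adipoq, by Pearson r over the 6 arrays among 11934 other genes above background on all of them, were Oxgr1 (0.972), Tsacc (0.972), Grsf1 (0.965), Slc27a4 (0.963) and Ufsp2 (0.961). Nearest to Fabp4 were Mrps12 (0.989), Gng7 (0.987), Coq5 (0.979), Cndp2 (0.977) and Lrrtm4 (0.976). None of these 10 is on the fat lists. The r values describe 6 arrays and were the highest of many, and those for Fabp4 use 3 values below background.

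The spread between rats of the same group differed widely among the 8 transcripts. The pooled SD within groups was 1.17 log2 for Fabp4, above 99.3% of all genes and of the 1338 genes within 0.5 log2 of its mean level, with its 3 treated values below background. For Cidec it was 0.906, above 98.7% of genes near its level, and for Retn 0.606, above 91.7%. Adipoq (0.252), Cidea (0.235), Lipe (0.212) and Pparg (0.202) were between the 65.7th and the 86.5th percentile of genes near their level. Ucp1 varied least, with an SD of 0.142, above 7.33% of genes near its level.

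**Figure D4:**
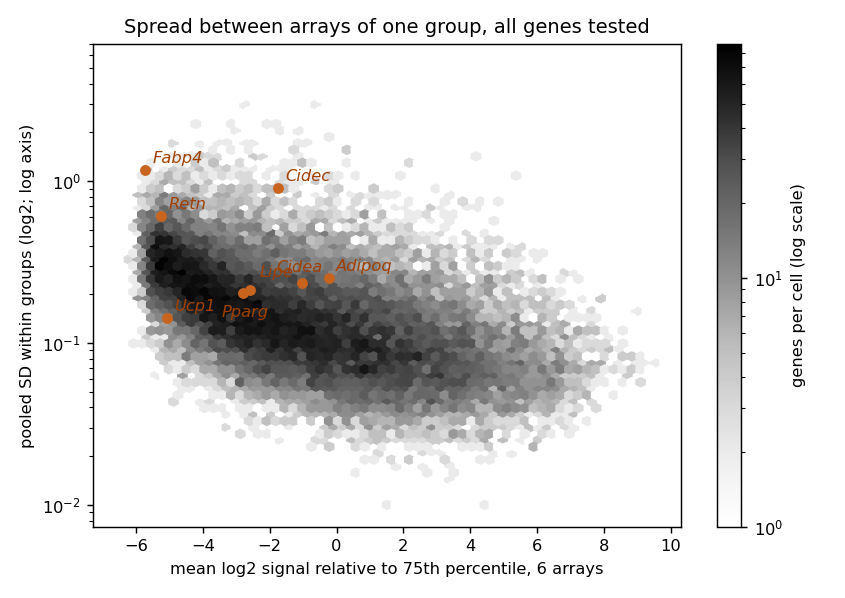
Pooled SD between arrays of one group (log axis, log2 units) against the mean log2 signal over 6 arrays for all 31179 genes, in grey by density, with the 8 fat transcripts in orange. Fabp4, with an SD of 1.17, and Cidec, with 0.906, lie at the upper edge of the genes of their signal, and Ucp1, with 0.142, at the lower edge.

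Promoters of 6 members are in the RefSeq table of the GRCr8 assembly. Those of Adipoq, Cidec and Retn are shown because these transcripts are highest on different arrays. Each is the 250 bases before the start, 5' to 3', for Adipoq at chr11:91240170-91240419 on the minus strand, for Cidec at chr4:148137116-148137365 on the minus strand and for Retn at chr12:6508524-6508773 on the plus strand. Capitals mark matches to AGGTCA, the half-site of nuclear receptors such as PPARgamma, or to CCAAT, on either strand.
Adipoq: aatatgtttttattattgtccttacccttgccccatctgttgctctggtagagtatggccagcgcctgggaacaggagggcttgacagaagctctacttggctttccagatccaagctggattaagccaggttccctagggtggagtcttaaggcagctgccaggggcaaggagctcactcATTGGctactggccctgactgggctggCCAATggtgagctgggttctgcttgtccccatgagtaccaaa
Cidec: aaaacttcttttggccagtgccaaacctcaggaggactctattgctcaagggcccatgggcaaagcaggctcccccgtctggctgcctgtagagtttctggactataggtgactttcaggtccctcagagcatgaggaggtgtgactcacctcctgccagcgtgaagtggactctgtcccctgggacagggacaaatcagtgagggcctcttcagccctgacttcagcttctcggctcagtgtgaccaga
Retn: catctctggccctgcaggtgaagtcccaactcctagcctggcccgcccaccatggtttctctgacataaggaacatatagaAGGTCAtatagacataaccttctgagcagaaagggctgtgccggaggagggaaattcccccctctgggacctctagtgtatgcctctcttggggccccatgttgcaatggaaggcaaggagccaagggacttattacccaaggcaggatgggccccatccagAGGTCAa
Adipoq held CCAAT on both strands, 42 to 38 bases and 69 to 65 bases before the start, Retn held AGGTCA at 169 to 164 and at 7 to 2 bases, and Cidec held neither. Of 33469 promoter windows of this length, 14.1% held AGGTCA and 34.0% held CCAAT on either strand. The full direct repeat AGGTCANAGGTCA, which contains the half-site, was in 0.0508% of windows and in none of the 7 windows of these members. TATAAA, in 12.9% of windows, was found in Ucp1 at 30 to 25 bases. A match describes letters in this window only.

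Other white adipocyte markers gave no common direction. Of 28 listed genes, 25 had a matched probe and 20 were tested; 9 were higher and 11 lower with benzyl acetate, with a median log2 difference of -0.013. At an unadjusted p under 0.05 there were 2 higher (3.82% of all genes) and 1 lower (2.92%). Slc7a10, an amino acid transporter that marks white adipocytes, was at -5.93, -5.70 and -6.13 in vehicle and -5.27, -4.27 and -5.12 with benzyl acetate. That is a difference of 1.03 (0.34 to 1.72) close to background. Over other processing choices and with 1 replicate left out it ranged from 0.37 to 1.22. Lpl, the lipoprotein lipase that frees fatty acids at the capillary wall, differed by 0.38 (0.020 to 0.74), with overlapping groups. Cfd, which encodes the adipokine adipsin, differed by -0.71 (-1.31 to -0.10), with every treated array below every vehicle array. Lep, which encodes leptin, and Trarg1 were not well above background on any array.

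The brightest white marker probes were Gpd1 and Mgll, genes of glycerol lipid metabolism that the tubule also uses, with differences of -0.072 and -0.15. Vehicle replicate 2 was the highest array for 4 of the 8 members and 6 of the 20 other white markers, against 16.7% of all genes. It was also the highest for 2 of 3 mesothelium and capsule genes and 2 of 3 skeletal muscle genes. For the 12 macrophage and 10 T and NK cell markers that count was 0. It was the highest for 0 and the lowest for 4 of the 11 other brown markers. Acvr1c and Slc2a4, named after their values were seen, shared that high array. Acvr1c, an activin receptor of adipocytes, was at -2.45, -1.24 and -3.17 in vehicle and -1.93, -1.69 and -2.48 with benzyl acetate. Against Cidec it gave r = 0.88 over the 6 arrays and 0.63 without the 2 arrays farthest from the median of Cidec, a description of a pair picked for this pattern. Slc2a4, the insulin-responsive glucose transporter GLUT4, was at -1.15 on vehicle replicate 2 and between -3.02 and -2.51 on the other 5 arrays.

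Among brown adipocyte markers other than the members, 11 of 18 listed genes were tested, with 7 higher, 4 lower, 0 at an unadjusted p under 0.05 and a median of 0.089. Elovl3, Dio2, Zic1 and Ucp3 were not well above background on any array. Letmd1 (0.076) and Cpt1b (-0.25), a muscle-type carnitine palmitoyltransferase, had the brightest probes. Preadipocyte and stroma markers had 9 tested genes, 6 higher and 3 lower, with a median of 0.069, Dpp4 at 0.069 and Bmp4 at 0.0020.

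Genes that work beside the members were read in the same fit, in lists that also hold the members of that role. Of 13 tested lipolysis genes, 2 were lower at an unadjusted p under 0.05 (2.92% of all genes) and 0 higher (3.82%). The 2 were Fabp4 and Prkar2b, a regulatory subunit of protein kinase A in fat, at -0.81 (-1.40 to -0.22). Fabp4 entered the test only through the vehicle group, where it was high, so this count supports no shared direction. G0s2, the inhibitor of adipose triglyceride lipase, differed by -0.0031. Of 9 tested lipid droplet proteins none had an unadjusted p under 0.05, with Bscl2, seipin, at -0.078 and Plin2, the droplet coat of most tissues, at -0.055. Among 14 adipokines and receptors, 10 were higher and 4 lower, and Cfd alone had an unadjusted p under 0.05. The adiponectin receptor gene Adipor1 differed by 0.058 (-0.13 to 0.24) and Rarres2, the chemerin gene, by 0.088.

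Of 9 fatty acid binding protein genes 5 were tested, and all 5 were on the lower side, as were 46.0% of all genes. Fabp4 and Fabp6 entered the test only through the vehicle group, so this count supports no shared direction. Among the 5, Fabp4, with treated values below background, and Fabp5 had an unadjusted p under 0.05 (2.92% of all genes). Too dim for the test were Fabp2 (0.35) and Fabp9 (0.20), on the higher side, and Fabp7 (-0.033) and Fabp12 (-1.48), on the lower. The median over the tested genes was -0.40, the value of Fabp6, which was near background. The median was -0.15 with normexp and -0.17 without vehicle replicate 3; it was -0.87 when benzyl acetate replicate 2 was left out. Fabp5, the epidermal form, stood at 2.72, 3.35 and 2.03 in vehicle and 2.20, 1.72 and 1.46 with benzyl acetate, a difference of -0.91 (-1.80 to -0.014) with overlapping groups. Fabp3, the heart form, differed by -0.14 (-0.57 to 0.29), Fabp1 by -0.14 and Fabp6 by -0.40. Cd36, a fatty acid transporter of capillaries and fat, differed by -0.29 (-0.66 to 0.075).

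**Figure D5:**
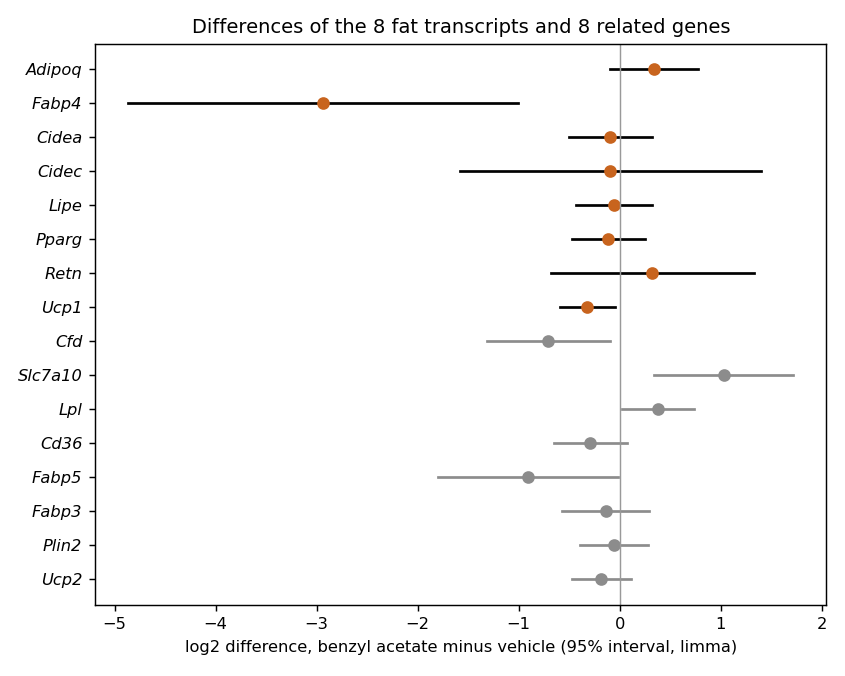
Log2 difference, benzyl acetate minus vehicle, with its 95% interval from limma, for the 8 fat transcripts (orange) and 8 related genes (grey). Among the members Ucp1 (-0.32) has an interval below 0, as has Fabp4 (-2.94), whose treated values are below background, and none passed after adjustment.

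Markers of other cells that carry Fabp4 were set beside it. Endothelial markers had 15 of 17 genes tested, 11 higher and 4 lower, with a median of 0.074; Kdr differed by 0.25 (0.055 to 0.45), Flt1 by 0.18 (0.0075 to 0.35) and Plvap by 0.076. Tek and Eng, named after their values were seen, were on the lower side, at -0.21 (-0.42 to 0.0047) and -0.089 (-0.41 to 0.24). The summed signal, in multiples of the 75th percentile, was 85.3 to 86.8 in vehicle and 88.7 to 94.8 with benzyl acetate, a sum to which bright probes such as Plvap and Kdr contribute most. Macrophage markers had 12 of 14 tested, 1 higher and 11 lower, where 46.0% of all genes were lower. Their median was -0.13, with Lyz2 at -0.048 and Tyrobp at -0.13. Their summed signal was 98.3 to 113.6 in vehicle and 79.7 to 122.8 with benzyl acetate, and Cd163 was not well above background on any array. Their part in the Fabp4 result was not tested.

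T and NK cell markers had all 10 tested genes on the lower side, against 46.0% of all genes, with a median of -0.63. Their summed signal was 4.82 to 12.5 in vehicle and 4.23 to 4.81 with benzyl acetate. Vehicle replicate 3 was the highest array for all 10, and without it the median was -0.23. It had Ccl5 at 2.83 against 1.08 to 1.29 elsewhere, and the lowest Fabp4 of its group. Cd3d differed by -0.48 (-1.19 to 0.24). Gzma differed by -0.50. Vehicle Cd2 was 2.79-fold above the treated arrays, all below background, by the same approximate bound as for Fabp4. Cd2 entered the test only through the vehicle group, where it was high. Its vehicle mean leans on replicate 3, at -2.97 against -4.50 and -5.63 in replicates 1 and 2. Adrenal markers Cyp11b1, Cyp11b2 and Star were not well above background on any array. Cyp11a1, another adrenal marker, was well above it on 2 vehicle and 2 treated arrays, too few for the test. It was at -6.20, -4.01 and -5.73 in vehicle and -4.48, -6.06 and -5.43 with benzyl acetate. Hsd3b1 differed by 0.074 and Cyp21a1 by -0.076.

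Markers of other tissues around the kidney gave no unadjusted p under 0.05. Mesothelium and capsule genes Krt19 and Gpm6a differed by -0.027 and -0.27, and red blood cell genes Hba-a1 and Hbb by 0.040 and 0.039. Skeletal muscle genes Tnnc2 and Acta1 differed by -0.067 and -0.28. Among renal cortex markers, Umod, the uromodulin gene of the thick ascending limb, differed by -0.073.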

How the data were processed

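Agilent Feature Extraction 10.7 made the 6 scanner tables, per the submitters' processing notes. Per the file headers, the processed signal is a linear intensity with background already subtracted. The deposited flags are 0 or 1 for each spot. The deposited value table of intensity equals that signal over its 75th percentile, within an SD of at most 0.00586 log2; its column medians were 0.1102, 0.111, 0.111 (vehicle), 0.1148, 0.1118 and 0.1125 (benzyl acetate).

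From the log2 signals of 61537 probes that are not controls, the 75th percentile of the array was subtracted, without outlier spots. Probes were named through a RefSeq table of GRCr8 (28206 matched, 15645 symbols). A probe entered when well above background on all 3 arrays of a group (42355 did), and each gene kept its brightest probe, leaving 31179 genes. Limma 3.58.1 in R 4.3.3 compared the groups (lmFit, eBayes, Benjamini-Hochberg over all genes). The fit was tested on simulated data. The number of arrays limits the precision, and scaling hides a change shared by most transcripts.

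Genes named were the 8 members, the 2 brightest of each of 17 further lists, up to 3 of each with an unadjusted p under 0.05, and 9 fixed genes where tested; a gene that this rule names is not reported here. Fabp1, Fabp2, Fabp6, Fabp7, Fabp9, Fabp12, Acvr1c, Slc2a4, Tek, Eng, Rbp4, Cyp11a1 and the markers named as not above background were named after their values were seen. Members and lists were chosen with earlier results of these data known. Same-numbered arrays did not deviate together (r of -0.11, 0.0075 and 0.00095 over genes), so replicate numbers were not taken as pairs. Blocks for replicate number and for slide were alternatives, as were other background, scaling, filter, probe and prior choices, the deposited table and leaving out each replicate. The files hold no mean spot signal, so normexp used the median. Raising Fabp4 to the lowest signal well above background was chosen after seeing the data.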

Additional observations from a re-analysis of the deposited data

How the results depend on the processing

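Over 1205 comparisons of a value with its alternative, 1135 kept their direction and side of the threshold, or moved by less than the spread. Limma called 0 genes in the main analysis, 2 lower with normexp, and 0 to 2 when 1 replicate was left out, with 2 lower without benzyl acetate replicate 1; in none of these was a member called. Without a filter on dim probes 6578 of 45433 genes had an unadjusted p under 0.05, against 2100 of 31179. Of those 6578 genes 5497 were higher with benzyl acetate, against 1190 of the 2100. With the replicate number as a block 0 genes passed, Fabp4 was at -2.94 (adjusted p = 0.716) and Ucp1 at -0.32 (adjusted p = 0.751), and the block changed no call. Over all alternatives Fabp4 kept its direction, from -3.74 without vehicle replicate 3 to -0.79 with normexp, with adjusted p-values of 0.260 to 0.849; with treated values raised to the floor it was -1.59. It had no value with detection required on all 6 arrays. Ucp1 kept its direction, from -0.42 to -0.027, and Adipoq its own, from 0.18 to 0.47.

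These log2 differences took the opposite sign, and the cause was not tested: with the slide as a block Cidec (0.11), G0s2 (0.026), Ncor1 (0.0061), Rxrg (-0.22), Cyp21a1 (0.062), Krt19 (0.15) and Umod (0.10); averaging probes per gene Lipe (0.010), Hsd3b1 (-0.12) and Tnnc2 (0.10); with normexp Rxrg (-0.037), Hba-a1 (-0.022) and Slc34a1 (0.0053); with median scaling Rxrg (-0.026) and Bmp4 (-0.027); with quantile normalization Hba-a1 (-0.035). The correlation of Adipoq with Fabp4 was 0.46 as deviations from group means, and -0.62 to -0.11 when 1 replicate was left out. Leaving out 1 replicate at a time also turned the sign of Cidea (-0.27 to 0.016), Cidec (-0.73 to 0.34), Lipe (-0.16 to 0.081), Pparg (-0.21 to 0.0097), Retn (-0.062 to 0.57), Gpd1 (-0.12 to 0.0043), G0s2 (-0.10 to 0.096), Plin2 (-0.13 to 0.088), Fabp3 (-0.29 to 0.00042), Rarres2 (-0.0030 to 0.20), Ncor1 (-0.052 to 0.038), Rxrg (-0.22 to 0.13), Bmp4 (-0.066 to 0.092), Lyz2 (-0.19 to 0.12), Tyrobp (-0.29 to 0.027), Hsd3b1 (-0.21 to 0.26), Cyp21a1 (-0.27 to 0.062), Krt19 (-0.22 to 0.15), Hba-a1 (-0.023 to 0.094), Hbb (-0.031 to 0.096), Tnnc2 (-0.19 to 0.065), Slc34a1 (-0.081 to 0.041) and Umod (-0.36 to 0.10). None of these was past the threshold in the main analysis. Fabp4 and Retn were near background, which limits their values.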

Other observations

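A pair of lipid carrier genes had a larger SD within groups, pooled over both groups, than any of the 8 fat transcripts, although within vehicle alone Fabp4 (SD 1.48) exceeded Rbp4 (1.06) and Fabp1 (1.24). Rbp4, which encodes the plasma carrier of retinol and is secreted by liver and fat, was at 0.95, 0.71 and 2.65 in vehicle and 2.22, 4.93 and -0.43 with benzyl acetate. The highest array, benzyl acetate replicate 2, exceeded the lowest, benzyl acetate replicate 3, 41.1-fold, and the pooled SD within groups of Rbp4 was 2.04 log2, above 99.9% of all genes. Fabp1, the liver form of the fatty acid binding proteins, was at -1.46, -3.67 and -1.60 in vehicle and -2.48, -0.66 and -4.00 with benzyl acetate, a 10.1-fold range with an SD of 1.47. Both were highest on benzyl acetate replicate 2 and lowest on benzyl acetate replicate 3. Their group differences were 0.80 (95% interval -2.55 to 4.15) for Rbp4 and -0.14 (-2.56 to 2.28) for Fabp1, with adjusted p-values in limma of 0.937 and 0.992. These genes were named after their values were seen.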
